A study of Mus musculus with 16 samples.

Results

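The epithelial keratins are the filament proteins that give colonocytes their mechanical strength. They were followed here as the 7 gene symbols Krt7, Krt8, Krt18, Krt19, Krt20, Krt23 and Krt80, taken by name from a table of 54392 gene symbols. The counts come from bulk RNA-seq of colonocytes, the epithelial cells lining the colon, of C57BL/6 mice kept for 3 weeks on food containing fish oil plus pectin (7 libraries) or corn oil plus cellulose (9 libraries). Fish oil supplies n-3 fatty acids and pectin is a fermentable fibre, whereas corn oil is rich in n-6 fatty acids and cellulose is poorly fermented. Both dietary components changed together, so that an effect of the oil and an effect of the fibre cannot be told apart. The age and sex of the mice are not given in the labels, and the labels number the libraries as biological replicates without saying whether each came from a separate mouse.

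Keratins form filaments only as heteropolymers of a type I with a type II chain. In simple, single-layered epithelia the main type II chain is Krt8, and its type I partners are Krt18, Krt19 and Krt20. Krt7 is a further type II chain, best known from ducts. In the intestine Krt20 marks differentiated cells towards the epithelial surface, and loss of Krt8 in mice is known to cause inflammation and overgrowth of the colon lining. Desmosomes, which join neighbouring cells, and hemidesmosomes, which fix cells to the basement membrane, are the anchoring points of these filaments.

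The type II members lie together on chromosome 15 and the type I members on chromosome 11, apart from Krt18, which lies on chromosome 15 with the type II genes. In the GENCODE M21 annotation of the mouse build GRCm38, Krt8 (ENSMUSG00000049382.10) occupies chr15:101996698-102004482 on the minus strand and Krt18 (ENSMUSG00000023043.7) chr15:102028180-102032027 on the plus strand. Krt7 (ENSMUSG00000023039.17) occupies chr15:101411043-101430313, plus strand, and Krt80 (ENSMUSG00000037185.9) chr15:101347444-101370162, minus strand. On the minus strand of chromosome 11, Krt20 (ENSMUSG00000035775.2) occupies chr11:99428403-99438150, Krt23 (ENSMUSG00000006777.7) chr11:99477974-99493137 and Krt19 (ENSMUSG00000020911.14) chr11:100140810-100148665. RefSeq promoter windows on GRCm38.p6, from 250 bases before to 50 bases after the annotated start, were matched for 5 of the 7 genes (Krt7, Krt8, Krt18, Krt20 and Krt23). The windows of Krt8 (chr15:102004293-102004592, minus strand), Krt18 (chr15:102027966-102028265, plus strand) and Krt20 (chr11:99438104-99438403, minus strand) are shown 5′ to 3′. They stand for the classical partners Krt8 and Krt18 and for the differentiation keratin. Krt19, the most abundant keratin here, and Krt80 had no matched window. Capitals mark matches to the motifs named after them.
Krt8 promoter: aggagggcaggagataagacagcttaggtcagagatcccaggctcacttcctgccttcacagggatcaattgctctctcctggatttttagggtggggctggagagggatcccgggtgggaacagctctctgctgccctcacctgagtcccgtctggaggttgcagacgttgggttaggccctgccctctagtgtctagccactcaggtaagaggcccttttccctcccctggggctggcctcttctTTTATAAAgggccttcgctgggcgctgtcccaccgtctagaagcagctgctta
Krt18 promoter: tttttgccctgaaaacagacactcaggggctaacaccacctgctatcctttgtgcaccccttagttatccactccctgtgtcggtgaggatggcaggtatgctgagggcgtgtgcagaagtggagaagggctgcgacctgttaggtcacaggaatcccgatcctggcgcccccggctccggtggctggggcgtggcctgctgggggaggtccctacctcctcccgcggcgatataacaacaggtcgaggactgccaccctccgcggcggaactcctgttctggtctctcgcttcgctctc
Krt20 promoter: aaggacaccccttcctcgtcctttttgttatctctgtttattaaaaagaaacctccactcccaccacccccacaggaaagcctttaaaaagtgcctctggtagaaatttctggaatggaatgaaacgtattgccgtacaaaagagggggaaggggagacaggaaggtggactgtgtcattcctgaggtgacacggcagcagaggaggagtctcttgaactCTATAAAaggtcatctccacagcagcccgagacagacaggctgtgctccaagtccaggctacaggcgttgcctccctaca
The motifs searched on both strands, with overlapping matches kept, were the TATA box TATAAA, the GC box GGGCGG, the AP-1 site TGANTCA and the CDX site TTTATNG. Positions count from 0 at the first base after the 250 upstream bases. The Krt8 window held TATAAA at -1 on its own strand and, overlapping it, at -3 on the other strand, both inside the capitals. The GENCODE start of Krt8 lies upstream of this RefSeq start. The Krt20 window held TATAAA at -29, overlapped by a CDX match on the other strand at -30. The Krt7 window held GGGCGG 4 times, at -141, -128, -56 and -24, and the Krt18 and Krt23 windows held none of these motifs. Over 32851 mouse promoter windows of the same length, TATAAA was found in 13.6%, GGGCGG in 35.7%, TGANTCA in 7.81% and TTTATNG in 10.9%. No match says only that these letters are absent from this window.

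Library totals ran from 16212831 to 19512755 counts with fish oil/pectin and from 13996288 to 19331984 with corn oil/cellulose. Library names came in 2 forms. Names beginning with GC belonged to 5 fish oil/pectin and 5 corn oil/cellulose libraries, and names without this prefix to 2 fish oil/pectin and 4 corn oil/cellulose libraries. The meaning of these forms is not stated in the sources used here, so the form was kept as a term of the model. The numbers in the names also fall into a lower and a higher series. All fish oil/pectin libraries carry lower numbers, whereas corn oil/cellulose libraries carry lower or higher ones. Number series and diet were thus partly confounded. All 6 libraries without the prefix, but only 1 of 5 fish oil/pectin and 2 of 5 corn oil/cellulose libraries with it, held RNA of Y-linked genes. Name form and sex were thus partly confounded. As a check of the labelled cell type, the summed level of 8 pan-epithelial markers lay at 11064 to 17535 CPM (a gene's counts relative to its TMM-scaled library size) with fish oil/pectin and 11290 to 13615 CPM with corn oil/cellulose, whereas 12 leukocyte markers summed to 21.7 to 49.3 CPM and 19.3 to 120 CPM, and 12 stromal and muscle markers to 3.27 to 7.96 CPM and 4.31 to 9.31 CPM, in the same order of diets. In such bulk samples, fewer cells of a type and less RNA per cell cannot be told apart.

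Krt19 and Krt8 were by far the most abundant keratins of these colonocytes. The 7 genes together took 1.41 ± 0.28% (SD, n = 7) of all counts with fish oil/pectin and 1.10 ± 0.11% (SD, n = 9) with corn oil/cellulose. Levels of different genes were compared as CPM per kilobase of exon. On this per-length scale Krt19 averaged 3512 with fish oil/pectin and 2527 with corn oil/cellulose, and Krt8 averaged 3089 and 2344 in the same order. Krt20 averaged 593 and 394, and Krt18, the classical partner of Krt8, averaged 519 and 347. Krt7 followed at 37.8 and 29.8 CPM per kb and Krt23 at 7.91 and 6.21 CPM per kb. Krt80, a type II keratin known from stratified epithelia, was near the floor of detection at 0.0299 with fish oil/pectin and 0.0393 CPM per kb with corn oil/cellulose.

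Within libraries, most of this order held throughout. Krt8 exceeded Krt20, Krt18 exceeded Krt7, Krt7 exceeded Krt23 and Krt23 exceeded Krt80 in all 16 libraries. The 2 neighbours at the top were close, with Krt19 above Krt8 in 15 of 16 libraries and the ratio between 0.986 and 1.23. Krt20 exceeded Krt18 in 12 of 16 libraries, with a ratio between 0.793 and 1.57, so these neighbours had no fixed order. The level of Krt7 depends on its annotated length. It was 65.1 with fish oil/pectin and 51.3 with corn oil/cellulose when its longest transcript (4094 bases) replaced all of its annotated exons (7049 bases), without change of rank.

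**Figure D1:**
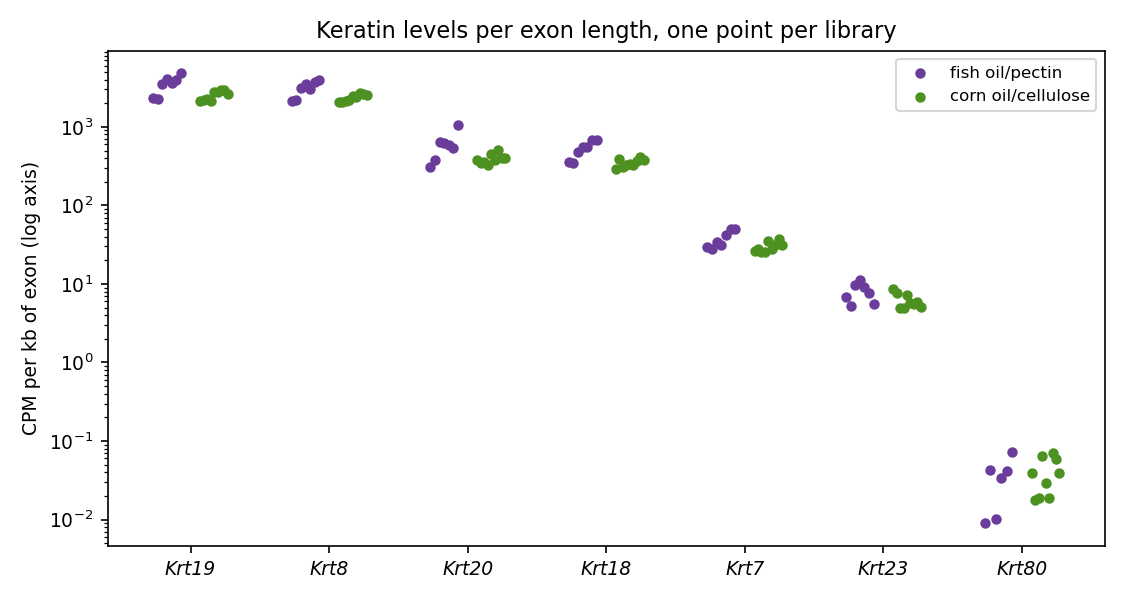
Level of each keratin in CPM per kilobase of exon (log axis), with each point a library, in fish oil/pectin (purple, left) and corn oil/cellulose (green, right). Krt19 and Krt8 lie highest, Krt20 and Krt18 overlap, and Krt80 lies lowest, where the 1 fish oil/pectin library with 0 counts cannot be drawn on a log axis.

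Taken over all libraries, the keratins of the colonocyte filament were higher with fish oil/pectin, and this was seen in the GC-named libraries. Of the 6 keratins abundant enough to be tested, 5 rose and 0 fell in edgeR's quasi-likelihood test at an adjusted p under 0.05, where 41.7% of all 14321 genes tested were called, 21.7% higher and 20.1% lower. The 5 were Krt8, Krt7, Krt18, Krt19 and Krt20, with folds between 1.21 and 1.41. These folds average over unlike name forms. Log2 fold changes of the 6 tested keratins ran from 0.35 to 0.69 in GC-named libraries and from -0.13 to 0.14 in the others. The median log2 fold change of the 6 tested keratins was 0.34, against -0.0043 over all genes tested. Among libraries with lower-numbered names alone, 0 keratins were called, with a median of 0.33, where 1194 genes were higher and 1056 lower. Only 6 of the 7 members passed the filter on low counts, so these figures do not cover Krt80. All log2 fold changes are fish oil/pectin over corn oil/cellulose and p-values are adjusted over all genes tested.

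Krt8, the main type II chain, averaged 6049 ± 1369 CPM with fish oil/pectin (SD, n = 7) and 4590.5 ± 485 CPM with corn oil/cellulose (SD, n = 9). In GC-named libraries it stood at 6156, 6886, 5922, 7192 and 7694 CPM with fish oil/pectin, against 4785, 4642, 5278, 5179.9 and 4934 CPM with corn oil/cellulose. In libraries without the prefix it stood at 4218 and 4275 CPM with fish oil/pectin, against 4092, 4003, 4155 and 4244 CPM with corn oil/cellulose. The diets were thus separate in the GC-named libraries and overlapped in the others. Its log2 fold change was 0.31 ± 0.08 (SE, edgeR adjusted p = 0.00484), a 1.24-fold increase.

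Krt7, the second type II chain, averaged 267 ± 66.8 CPM with fish oil/pectin and 209.9 ± 30.3 CPM with corn oil/cellulose (SD, n = 7 and 9). In GC-named libraries it stood at 239, 218, 299.97, 352 and 351 CPM with fish oil/pectin, against 246, 196, 219.98, 264 and 222 CPM with corn oil/cellulose. In the other libraries it stood at 209 and 198 CPM with fish oil/pectin, against 185, 197, 179 and 179 CPM with corn oil/cellulose. Only 3 of 7 fish oil/pectin libraries lay above the highest corn oil/cellulose library. The log2 fold change was 0.27 ± 0.10 (SE, edgeR adjusted p = 0.0308), the least secure call of the 5. The call was lost on leaving out, singly, any of fish oil/pectin libraries 5, 6 and 7 or any of corn oil/cellulose libraries 6, 7 and 9, with values between 0.22 and 0.26, and without fish oil/pectin libraries 6 and 7 together the value was 0.13 (edgeR adjusted p = 0.205).

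Krt18, the type I partner of Krt8, had the largest log2 fold change among the 6 tested keratins. It averaged 745 ± 193 CPM with fish oil/pectin and 499 ± 55.3 CPM with corn oil/cellulose (SD, n = 7 and 9). In GC-named libraries it stood at 683, 797, 789.6, 965 and 973 CPM with fish oil/pectin, against 485, 470.1, 527, 587 and 538 CPM with corn oil/cellulose. In the other libraries it stood at 514 and 496 CPM with fish oil/pectin, against 422, 553, 441 and 464 CPM with corn oil/cellulose. Again the diets were separate among GC-named libraries and overlapped in the rest. The log2 fold change was 0.49 ± 0.11 (SE, edgeR adjusted p = 0.00168), a 1.41-fold increase.

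Krt19, a small type I keratin that lacks most of the usual tail, averaged 6514 ± 1752 CPM with fish oil/pectin and 4688 ± 635 CPM with corn oil/cellulose (SD, n = 7 and 9). In GC-named libraries it stood at 6575, 7598, 6756, 7328 and 8934 CPM with fish oil/pectin, against 5177, 5094, 5390.2, 5442 and 4919 CPM with corn oil/cellulose. In the other libraries it stood at 4271 and 4139.9 CPM with fish oil/pectin, against 3925, 4134, 4151 and 3964 CPM with corn oil/cellulose. The lowest GC-named fish oil/pectin library thus lay above every corn oil/cellulose library. The log2 fold change was 0.36 ± 0.08 (SE, edgeR adjusted p = 0.00291), a 1.28-fold increase.

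Krt20, the type I keratin of differentiated surface cells, averaged 1142 ± 467 CPM with fish oil/pectin and 759.8 ± 105 CPM with corn oil/cellulose (SD, n = 7 and 9). In GC-named libraries it stood at 1232, 1215, 1139, 1027 and 2048 CPM with fish oil/pectin, against 858, 738, 975, 778 and 769.5 CPM with corn oil/cellulose. In the other libraries it stood at 602 and 731 CPM with fish oil/pectin, against 730.5, 670.5, 692 and 627 CPM with corn oil/cellulose. Fish oil/pectin library 7 stood far above the rest. The log2 fold change was 0.45 ± 0.15 (SE, edgeR adjusted p = 0.0194) and was 0.30 (edgeR adjusted p = 0.017) without that library.

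Krt23, a type I keratin best known for its induction by histone deacetylase inhibitors in human cancer cells, was scarce and did not pass the test. It averaged 12.4 ± 3.46 CPM with fish oil/pectin and 9.71 ± 2.12 CPM with corn oil/cellulose (SD, n = 7 and 9). In GC-named libraries it stood at 15.2, 17.6, 14.1, 12.1 and 8.77 CPM with fish oil/pectin, against 11.4, 9.07, 8.62, 9.10 and 8.07 CPM with corn oil/cellulose. In the other libraries it stood at 10.7 and 8.21 CPM with fish oil/pectin, against 13.6, 12.0, 7.76 and 7.72 CPM with corn oil/cellulose. The diets overlapped in both forms. The log2 fold change was 0.32 ± 0.17 (SE, edgeR adjusted p = 0.133), and without fish oil/pectin library 2 it was 0.43 (edgeR adjusted p = 0.0485). Krt80 had 61 reads in all, between 0 and 8 per library in both diets, too few to test.

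Separation of the diets by library can be set against the whole table. Over both name forms 0 keratins had every fish oil/pectin library above every corn oil/cellulose library, as had 2.35% of genes, while 0.999% had them all below. Among GC-named libraries Krt8, Krt18, Krt19 and Krt20 had all 5 fish oil/pectin libraries above all 5 corn oil/cellulose libraries, as had 15.2% of genes, while 13.8% had them all below. Among the other libraries only Krt7 had both fish oil/pectin libraries above all 4 corn oil/cellulose libraries, as had 18.1% of genes, while 16.7% had them both below.

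**Figure D2:**
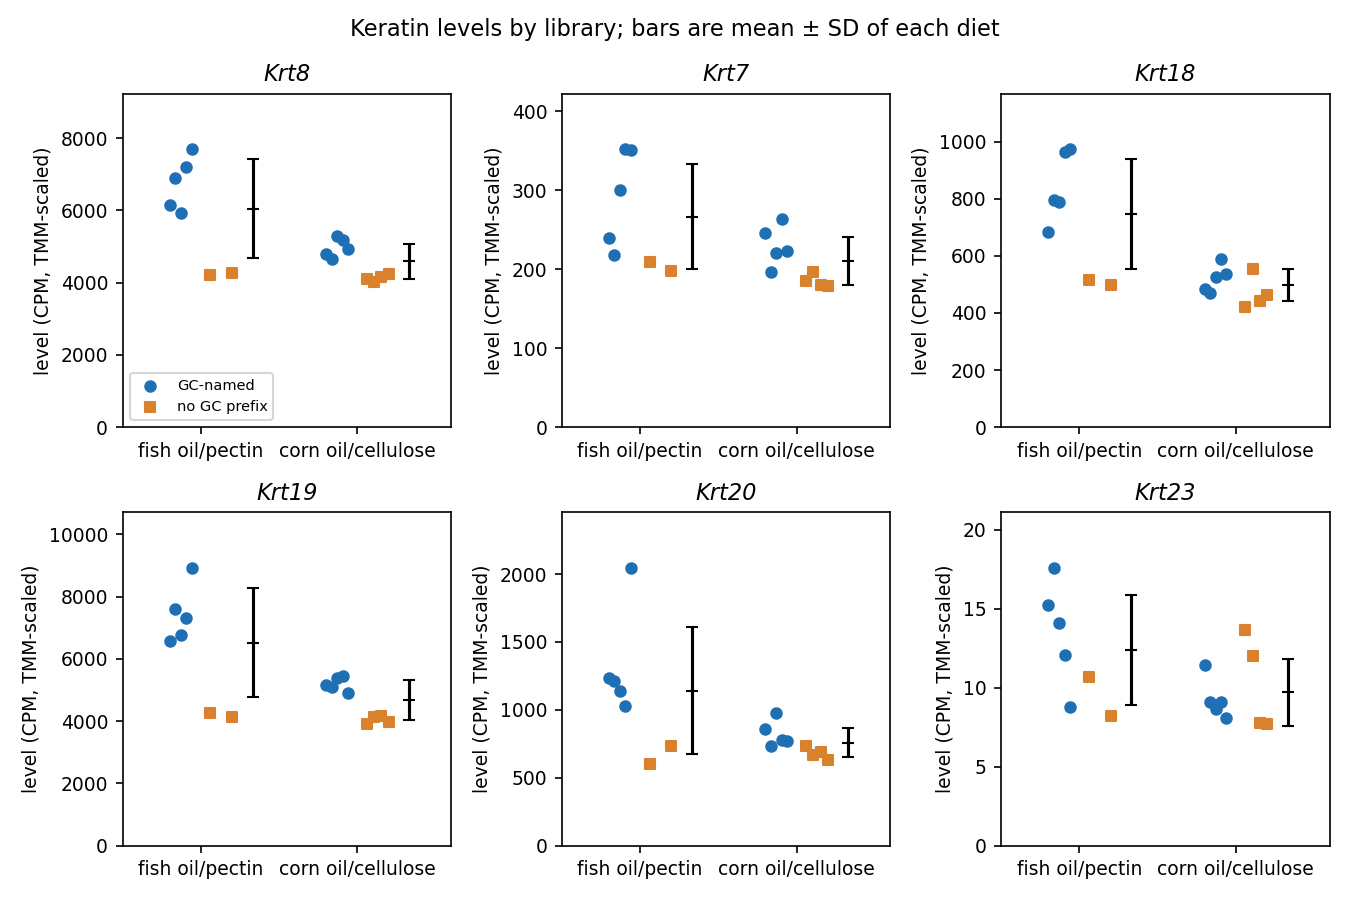
Level of each tested keratin in CPM for every library, fish oil/pectin left of corn oil/cellulose, with GC-named libraries as circles and the others as squares. Bars give the mean ± SD of each diet; for Krt8, Krt18, Krt19 and Krt20 all 5 GC-named fish oil/pectin libraries lie above all 9 corn oil/cellulose libraries, and the other 2 do not.

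The increase was seen in GC-named libraries, and for Krt8, Krt18 and Krt19 it was larger there than in the other libraries. In a joint edgeR fit with a diet effect for each name form, all 6 tested keratins rose in GC-named libraries, where 45% of all genes were called, 23.1% higher and 21.8% lower. The log2 fold changes there were 0.69 ± 0.10 for Krt18 (SE, edgeR adjusted p = 5.5e-05), 0.69 ± 0.15 for Krt20 (adjusted p = 0.00136), 0.55 ± 0.19 for Krt23 (adjusted p = 0.0251), 0.51 ± 0.08 for Krt19 (adjusted p = 5.87e-05), 0.45 ± 0.07 for Krt8 (adjusted p = 0.000128) and 0.35 ± 0.12 for Krt7 (adjusted p = 0.0247). In libraries without the prefix 0 keratins were called, and so were 0% of all genes, although 2385 genes had an unadjusted p under 0.05. The lowest unadjusted p of a keratin there was 0.412, so 0 keratins passed without adjustment either. The log2 fold changes in these libraries lay between -0.13 ± 0.26 for Krt23 and 0.14 ± 0.16 for Krt7 (SE), with Krt8 at 0.04 ± 0.10, Krt18 at 0.10 ± 0.14, Krt19 at 0.06 ± 0.10 and Krt20 at -0.03 ± 0.20. The median over the tested keratins was 0.53 for GC-named libraries and 0.05 for those without the prefix, against 0.0033 and -0.012 over all genes tested.

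The difference of the diet effect between the name forms was tested as an interaction and was called for Krt8, Krt18 and Krt19, where 8.41% of all genes were called, 4.27% more positive and 4.14% more negative in GC-named libraries. It was 0.41 ± 0.12 for Krt8 (SE, log2, edgeR adjusted p = 0.0499), 0.59 ± 0.17 for Krt18 (adjusted p = 0.0438) and 0.46 ± 0.13 for Krt19 (adjusted p = 0.0386). It was 0.72 ± 0.26 for Krt20 (adjusted p = 0.0876), 0.68 ± 0.32 for Krt23 (adjusted p = 0.200) and 0.21 ± 0.20 for Krt7 (adjusted p = 0.565), which did not pass. These calls lay close to the threshold. With each library left out in turn, the call held for Krt8 only without fish oil/pectin library 3, 5 or 7, and for Krt18 without any of these 3 or of corn oil/cellulose libraries 1, 8 and 9. For Krt19 it held without any of the same 3 or of corn oil/cellulose libraries 5, 7, 8 and 9. The values without any single library ran from 0.35 to 0.45 for Krt8, 0.50 to 0.65 for Krt18 and 0.38 to 0.50 for Krt19, with adjusted p up to 0.217, 0.220 and 0.213. Without fish oil/pectin library 7 the difference for Krt20 was 0.52 and passed (edgeR adjusted p = 0.0306).

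The name form itself went with the keratin level. In the model with a single name-form effect for both diets, GC-named libraries lay higher than the others by 0.42 for Krt8 (log2, edgeR adjusted p = 0.000705), 0.54 for Krt19 (adjusted p = 0.000193), 0.55 for Krt20 (adjusted p = 0.00887), 0.39 for Krt7 (adjusted p = 0.0052) and 0.37 for Krt18 (adjusted p = 0.012). For Krt23 the value was 0.10 (adjusted p = 0.665). For Krt18 the size differed between diets. It averaged 841 CPM in GC-named and 505 CPM in other libraries with fish oil/pectin, and 521 and 470 CPM with corn oil/cellulose. The share of all genes called for the name form was not counted, so these calls cannot be set against it. Sex went with the name form and was not a term of this fit or of the interaction fit. In the model with no term for the name form the same 5 keratins passed for diet as with it.

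**Figure D3:**
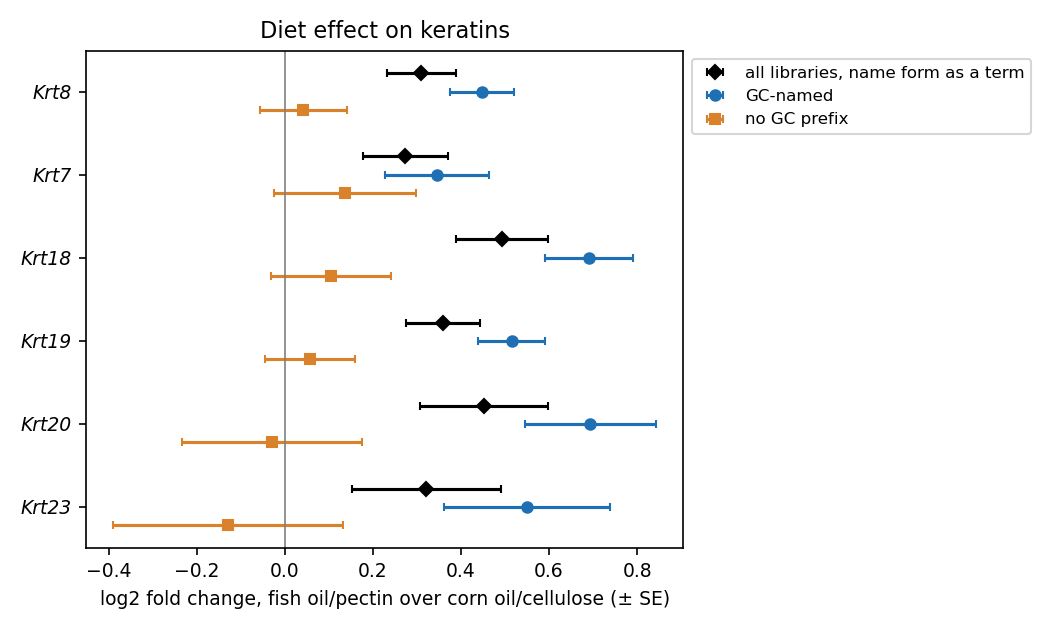
Log2 fold change (± SE) of each tested keratin, fish oil/pectin over corn oil/cellulose, over all libraries with the name form as a term (diamonds), in GC-named libraries (circles) and in the others (squares). In GC-named libraries the values run from 0.35 to 0.69, and in the others from -0.13 to 0.14.

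Leukocyte markers moved with the diet in the same libraries as the keratins and in the opposite direction. Of 12 listed markers 10 were tested, 0 rose and 6 fell with fish oil/pectin, where 21.7% of all genes tested were higher and 20.1% lower, with a median log2 fold change of -0.91. The median was -1.32 for GC-named libraries and -0.12 for those without the prefix. The pan-leukocyte phosphatase gene Ptprc averaged 5.87 ± 1.01 CPM with fish oil/pectin and 15.5 ± 10.2 CPM with corn oil/cellulose (SD, n = 7 and 9). In GC-named libraries the summed level of the 12 markers was 28.4 to 49.3 CPM with fish oil/pectin and 62.5 to 120 CPM with corn oil/cellulose. In the others it was 21.7 to 25.2 CPM with fish oil/pectin and 19.3 to 26.0 CPM with corn oil/cellulose. A leukocyte and stromal marker score was also used as a covariate. It averaged 10 leukocyte markers and only 1 stromal and muscle marker, so it was in effect a leukocyte score. With it, 0 keratins passed in edgeR and the lowest unadjusted p of a keratin was 0.0673. The log2 fold changes were 0.15 for Krt8, 0.21 for Krt7, 0.32 for Krt18, 0.20 for Krt19, 0.16 for Krt20 and 0.08 for Krt23. In that fit 0 genes of the whole table passed and 3713 had an unadjusted p under 0.05. In GC-named libraries the leukocyte sums of the diets did not overlap, so this fit cannot tell the score and the diet apart there. The part of leukocyte RNA in the keratin result was thus not tested.

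**Figure D4:**
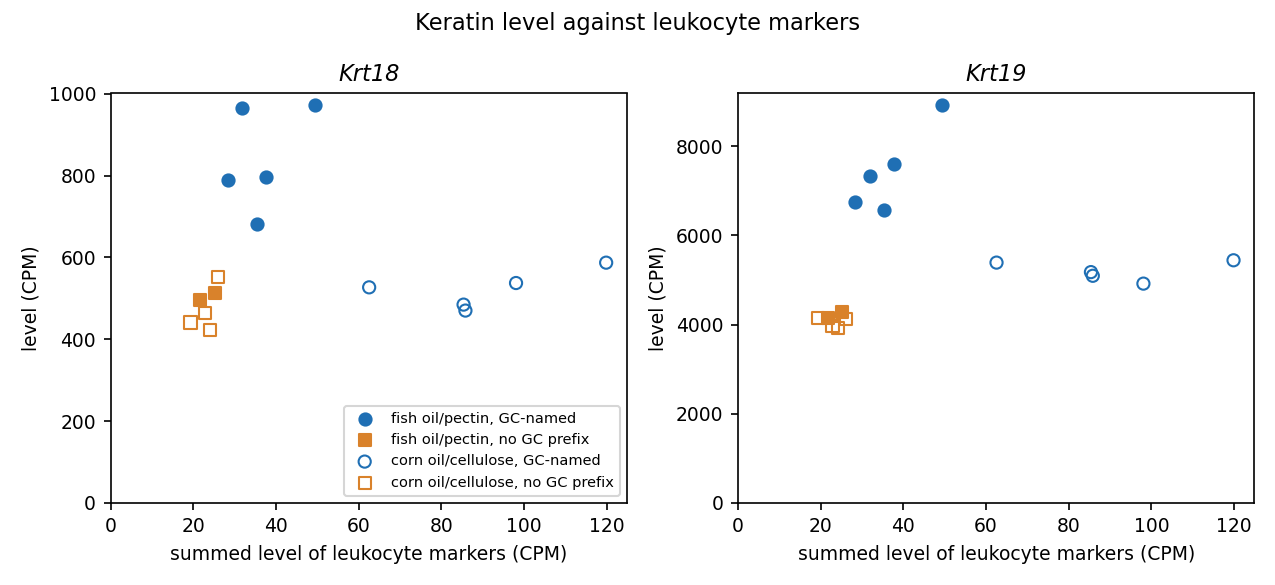
Level of Krt18 and Krt19 in CPM against the summed level of 12 leukocyte markers in CPM, with fish oil/pectin filled, corn oil/cellulose open, circles for GC-named libraries and squares for the others. The GC-named diets are separate on both axes, with 28.4 to 49.3 CPM of leukocyte markers in fish oil/pectin against 62.5 to 120 CPM in corn oil/cellulose, and the libraries without the prefix lie together at 19.3 to 26.0 CPM.

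Over both name forms together, the make-up of the keratin pool was much alike in both diets. Of the summed per-length level, Krt19 made up 45.1% with fish oil/pectin and 44.7% with corn oil/cellulose, Krt8 40.1% and 41.6%, Krt20 7.47% and 6.98%, and Krt18 6.70% and 6.17%, each in the same order of diets. The ratio of Krt8 to Krt18 per length was 6.01 ± 0.44 with fish oil/pectin (SD, n = 7, range 5.47 to 6.62) and 6.79 ± 0.63 with corn oil/cellulose (SD, n = 9, range 5.32 to 7.35). The ranges overlapped, and corn oil/cellulose library 2 held the lowest ratio of all 16. In GC-named libraries the ratio was 5.95 ± 0.51 with fish oil/pectin (SD, n = 5, range 5.47 to 6.62). With corn oil/cellulose it was 7.01 ± 0.38 there (SD, n = 5, range 6.47 to 7.35). In the other libraries it averaged 6.17 with fish oil/pectin (n = 2) and 6.51 with corn oil/cellulose (n = 4). The summed type I level was 1.47 ± 0.11 times the type II level with fish oil/pectin and 1.38 ± 0.06 times with corn oil/cellulose (SD, n = 7 and 9). In GC-named libraries these values were 1.51 ± 0.10 and 1.40 ± 0.04 (SD, n = 5 each), and in the others both averaged 1.35. The ratio of Krt20 to Krt19 was 0.165 ± 0.030 and 0.157 ± 0.014 in the same order. These ratios were described and not tested.

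The other keratin genes were almost silent. The 47 other keratin symbols summed to 15.7 to 26.8 CPM with fish oil/pectin and 15.2 to 24.8 CPM with corn oil/cellulose, against sums of 9824 to 20009.7 CPM and 9369 to 12399 CPM for the 7 members. Among them 11 had 0 counts in every library, 11 could be tested and 0 passed, where 41.7% of all genes tested were called. Those tested had only 130 to 937 reads each over 16 libraries. Their log2 fold changes lay between -0.48 and 0.32 with SE of 0.14 to 0.38, so changes of the members' size could have been missed. Hair and skin keratins led, with 937 reads over 16 libraries for Krt84 and 922 for Krt10. Stratified squamous epithelium, which borders the colon at the anus and uses another keratin set, left few reads. Of its 12 listed markers, Krt5 had 2 reads over all 16 libraries, Krt6a 3 and Trp63, the master regulator of stratified epithelia, 3, and Sprr3 and Ivl had 0. The rest were low but present, from 30 reads for Krt1 and 72 for Krt13 to 194 for Lor, 236 for Krt4, 267 for Krt14, 453 for Krt15 and the 922 of Krt10. Together these markers summed to 5.13 to 10.9 CPM with fish oil/pectin and 5.15 to 9.89 CPM with corn oil/cellulose. Of the 5 tested 0 passed, against the same 41.7% of all genes.

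Genes that anchor keratin filaments were counted beside the background of 21.7% of all genes tested higher and 20.1% lower. Of 15 listed desmosome and cytolinker genes 11 were tested, 1 rose and 5 fell, with a median log2 fold change of -0.18, against -0.0043 over all genes tested. Pkp2, a desmosomal plaque protein, rose by 0.26 ± 0.06 (SE, log2, edgeR adjusted p = 0.00453). Dsp, which ties keratins to the desmosome, averaged 610 ± 98.9 CPM with fish oil/pectin and 809.8 ± 99.6 CPM with corn oil/cellulose (SD, n = 7 and 9), a log2 fold change of -0.37 ± 0.08 (edgeR adjusted p = 0.00168). Ppl, the cytolinker periplakin, was at -0.53 ± 0.09 (adjusted p = 0.000542). Of 6 hemidesmosome genes 5 were tested, 0 rose and 3 fell, with a median of -0.42. Among them Dst, the linker dystonin, was at -0.60 ± 0.08 (edgeR adjusted p = 0.00034) and the integrin gene Itgb4 at -0.42 ± 0.07 (adjusted p = 0.000562).

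Transcript length moved with these anchor calls. After each library's trend on exon length was removed, 1 desmosome gene rose and 1 fell, and 1 hemidesmosome gene fell. Dsp was then at -0.17 (edgeR adjusted p = 0.0593) and Dst at -0.11 (adjusted p = 0.306), both no longer called, whereas Ppl at -0.40 and Itgb4 at -0.28 still passed. Under the same removal Krt18 was at 0.33, Krt19 at 0.24, Krt8 at 0.20 and Krt7 at 0.42, all still called, and Krt20 was at 0.34 (adjusted p = 0.066).

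Of 15 genes for proteins that bind or fold keratins, 5 rose and 1 fell, against the same background, with a median log2 fold change of 0.04. In GC-named libraries 6 rose and 0 fell, where 45% of all genes were called, 23.1% higher and 21.8% lower. Both totals called are close to the shares over all genes, so they are no result about these genes as a group. Ywhae, a 14-3-3 protein of the family that binds phosphorylated keratins, averaged 509 ± 56.9 CPM with fish oil/pectin and 408 ± 20.5 CPM with corn oil/cellulose (SD, n = 7 and 9), a log2 fold change of 0.30 ± 0.06 (SE, edgeR adjusted p = 0.00114). Fam83h, a scaffold that brings casein kinase to keratins, was at -0.26 ± 0.09 (adjusted p = 0.0226), and this call was lost with the length trend removed (-0.22, adjusted p = 0.062). Of 13 other intermediate filament genes 7 were tested, 2 rose and 0 fell. These were the nuclear lamins Lmnb1 (0.44 ± 0.12, SE, edgeR adjusted p = 0.00649) and Lmna (0.29 ± 0.08, adjusted p = 0.00834).

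Of 19 listed transcription factors linked to intestinal or surface differentiation, 18 were tested, 2 rose and 6 fell, with a median log2 fold change of -0.14. The total of 8 called is close to the 41.7% called over all genes, so it is no result about these factors as a group. Those that rose were the intestinal homeobox factors Cdx1 (0.30 ± 0.07, SE, edgeR adjusted p = 0.00354) and Cdx2 (0.41 ± 0.13, adjusted p = 0.0199). Fosl2, an AP-1 subunit, was at -0.38 ± 0.09 (adjusted p = 0.00294) and Klf6, a zinc-finger factor, at -0.34 ± 0.08 (adjusted p = 0.00314). With the length trend removed, Cdx2 (0.32, adjusted p = 0.0565) and Fosl2 (-0.17, adjusted p = 0.11) were no longer called.

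Of 16 surface colonocyte markers 3 rose and 3 fell, near the 41.7% of all genes called, with a median log2 fold change of 0.25. The median was 0.47 for GC-named libraries and -0.19 for those without the prefix. In GC-named libraries, where all 6 tested keratins rose, 8 surface markers rose and 3 fell, against 23.1% of all genes higher and 21.8% lower. Plac8 was at 0.47 ± 0.12 (SE, edgeR adjusted p = 0.00453) and Guca2b, a guanylate cyclase-activating peptide, at 0.53 ± 0.14 (adjusted p = 0.00526). Slc20a1, a phosphate transporter, was at -0.95 ± 0.24 (adjusted p = 0.00607) and the adhesion molecule Ceacam1 at -0.30 ± 0.10 (adjusted p = 0.0218), a call lost with the length trend removed (-0.21, adjusted p = 0.116). With a surface colonocyte score as a covariate the same 5 keratins stayed called. That score averages markers that moved in opposite directions. With it 3 surface markers were still higher and 4 lower, with a median of 0.15, so the fit does not take out surface cell content. The part of surface cells in the keratin result was not tested. Of 10 crypt base and progenitor markers 2 rose and 2 fell, and in GC-named libraries 1 rose and 4 fell. Among them the stem cell factor Sox9 was at -0.24 ± 0.07 (adjusted p = 0.00903) and Ascl2 at 0.40 ± 0.14 (adjusted p = 0.0258), with the Ascl2 call lost once the length trend was removed (0.26, adjusted p = 0.142). Of 8 pan-epithelial markers 3 rose and 0 fell, including the galectin gene Lgals4 at 6906 ± 1564 CPM with fish oil/pectin and 5296 ± 574 CPM with corn oil/cellulose (SD, n = 7 and 9; log2 fold change 0.29 ± 0.08, edgeR adjusted p = 0.00706). The total called is near the 41.7% of all genes. In GC-named libraries 5 of the 8 rose and 0 fell. The median was 0.29 there and -0.06 in the others. Their summed level in GC-named libraries was 15300 to 17535 CPM with fish oil/pectin and 12861 to 13615 CPM with corn oil/cellulose, separate as for 4 of the keratins. Goblet and tuft cell markers gave 0 calls among 6 each, and of 6 enteroendocrine markers only Neurod1 was called, at -0.38 ± 0.14 (adjusted p = 0.0325).

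The genes whose level followed each keratin most closely over the 16 libraries were named as a description. These libraries differ in diet, name form and depth, so the coefficients carry no test. Krt8 had its highest Pearson correlation of log2 CPM with Krt19 (r = 0.984), then with the myosin light chain gene Myl12a (r = 0.980) and Ccdc12 (r = 0.980). For Krt19 the closest were Myl12a (r = 0.990), the actin-binding profilin gene Pfn1 (r = 0.987) and Ndufa3 of respiratory complex I (r = 0.987). Krt18 was followed by Tmed2 and Rer1, which act in transport between endoplasmic reticulum and Golgi (r = 0.976 and 0.971), and by the proteasome gene Psmc1 (r = 0.969). Krt20 was closest to Igsf5, Sdcbp2 and Paqr4 (r = 0.969, 0.965 and 0.965). Among the genes close to Krt7 were Lrwd1 and the secretin gene Sct (r = 0.934 and 0.928). For the scarce Krt23 the highest values were only 0.789, 0.775 and 0.746, with Tmem35a, Cyp2c69 and Bcam.

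**Figure D5:**
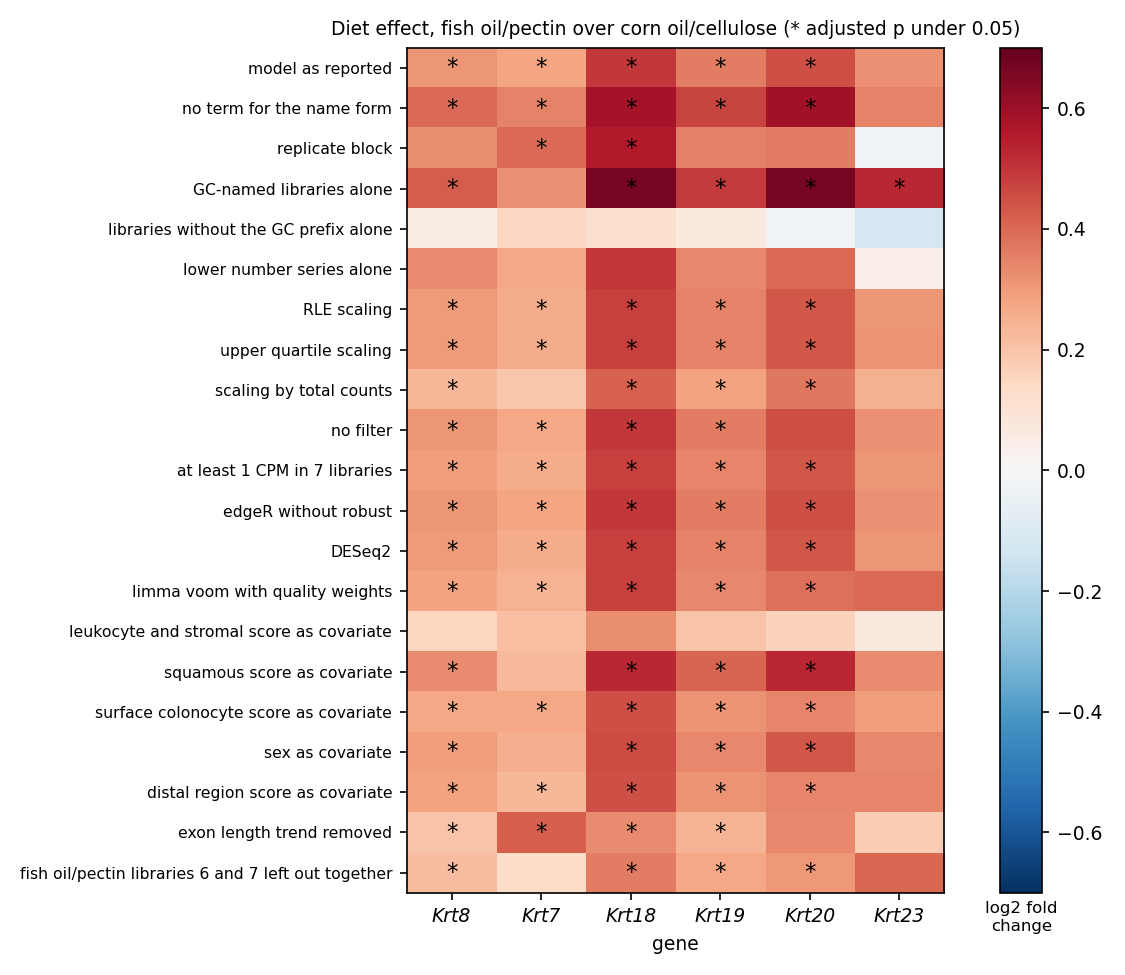
Log2 fold change of each tested keratin (columns), fish oil/pectin over corn oil/cellulose, in the reported model and under 20 other settings (rows), red for higher and blue for lower with fish oil/pectin. Asterisks mark an edgeR, DESeq2 or limma adjusted p under 0.05; 0 keratins are marked with the leukocyte and stromal score as a covariate, in a fit of only the libraries lacking the GC prefix, or in the lower number series alone.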

How the data were processed

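A stranded mRNA kit turned 200 ng of RNA per sample into a library, per the labels' protocols. The authors deposited raw read counts per gene symbol. STAR 2.6.0a, HTSeq 0.11.1 and GRCm38 were used, per the submitters' processing notes. Strand setting and annotation release are not stated in the sources used here, so genes overlapping Krt7, Krt8 and Krt80 on the other strand may share reads. Near copies took few reads: the pseudogene Krt8-ps had 1337 counts against 1412721 for Krt8, and Gm5200 had 12 against 163991 for Krt18.

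Counts were fitted with edgeR 4.0.16 in R 4.3.3 (robust quasi-likelihood test, TMM scaling, filterByExpr), with name form and diet as terms. Of 54392 symbols 14321 were tested. Benjamini-Hochberg adjustment ran over all of them, with a threshold of 0.05. The SE is the size of the log2 fold change divided by the root of its F value. A joint fit gave the diet effect in each name form and their difference. Libraries of the same diet differed beyond sampling noise (chi-square per degree of freedom 8.20 to 141 over 57 pairs). The p-values thus reflect differences among these libraries, which may be technical. The 6 tested keratins had 2960 to 1483524 counts each over all libraries, and the untested Krt80 had 61.

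All 7 keratins are described. Each list's up to 2 higher and 2 lower called genes with the lowest p are named, as are 3 genes by correlation per keratin (prior count 2, predicted genes left out); some genes these rules chose are left out of the text and were not replaced. The members and lists were chosen with earlier results of these data known. Leaving out fish oil/pectin libraries 6 and 7 together and a distal colon score were alternatives added after seeing the data, as were the tests of the lists under other settings. The script was checked on simulated data. Promoter windows are from RefSeq.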

Additional observations from a re-analysis of the deposited data

Results flagged for a closer look

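The difference of the diet effect between GC-named and other libraries passed the interaction test in edgeR for Krt8 (0.41, log2, GC-named minus other), Krt18 (0.59) and Krt19 (0.46). In the ratio of Krt8 to Krt18 per length, corn oil/cellulose library 2 stood apart from the other 8 of its diet at 5.32, with its gap to the nearest library at 0.569 of the range. This was 1 of 24 groups of values examined, and chance sets about 1 in 20 apart.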

How the results depend on the processing

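Over other scalings, filters and tools the keratins kept their direction, and the exceptions follow. The number of genes higher and lower was 3103 and 2876 as reported, and the number of keratins higher was 5. These were 1981, 1608 and 3 at an adjusted p under 0.01, 614, 286 and 0 in libraries without the GC prefix alone, and 1194, 1056 and 0 among libraries whose names carry lower numbers (3 keratins had an unadjusted p under 0.05). With the leukocyte and stromal score as a covariate they were 0, 0 and 0, and with the exon length trend removed 1595 genes were lower. Replicate numbers were not taken to pair the libraries: same-numbered deviations correlated between -0.0678 and 0.475, above 0.1 in 4 of 7 pairs, and 1 of 7 fish oil/pectin libraries correlated best with its own number. With a replicate block 1948 genes were higher, 1546 lower and 2 keratins higher, Krt18 (0.55, adjusted p = 0.035) and Krt7 (0.40, adjusted p = 0.041). Signs turned for Krt20 (-0.019) and Krt23 (-0.12) without the GC prefix and for Krt23 (-0.032) under the replicate block. Krt7 lost its call under total-count scaling (0.20, adjusted p = 0.099), where 37.3% of calls were higher against 51.9% with TMM and 2247 genes were higher and 3779 lower, and with sex (0.25) or a squamous score (0.22) as a covariate. Krt20 lost its call with no filter (adjusted p = 0.059), and in GC-named libraries alone Krt7 did (0.32, adjusted p = 0.072) and Krt23 gained it (0.53, adjusted p = 0.027). The differences between name forms for Krt8, Krt18 and Krt19 were 0.28, 0.46 and 0.33 under total-count scaling, where 0 of the 3 were called. Leaving out each library gave 4 to 6 keratins higher and 6 to 1763 genes with a difference between name forms (1204 as reported), the lowest without fish oil/pectin library 2. With the longest transcript as length, Krt7 was at 65.1 with fish oil/pectin and 51.3 with corn oil/cellulose, and with corn oil/cellulose Krt19 was at 2975 and Krt80 at 0.0642 CPM per kb. Beyond these constructions, the cause of each change was not tested.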
